A study of Rattus norvegicus with 6 samples.

Results

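Genes of the insulin-like growth factor (IGF) and insulin signalling axis were followed through the cells of the rat pancreas. The 10 genes were chosen by name out of 32883 genes in the files, with earlier results of these data known. They comprise the ligands Igf1 and Igf2, the receptors Igf1r and Insr, the docking proteins Irs1 and Irs2, and the binding proteins Igfbp3, Igfbp4, Igfbp5 and Igfbp7. The cells came from male Wistar rats in 3 groups of 2 rats each. Young rats were 2 months old and ate a normal diet, old rats were 20 months old and had eaten a normal diet for 18 months, and HFHF-old rats were 20 months old and had eaten a high-fat high-fructose (HFHF) diet for 18 months. Islets were isolated with collagenase and a density step before droplet capture, so the share of each cell type reflects that isolation as well as the organ.

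IGF-I and IGF-II are secreted growth factors that act through the IGF-I receptor, a tyrosine kinase closely related to the insulin receptor. Both receptors pass the signal to the docking proteins IRS1 and IRS2, which recruit phosphoinositide 3-kinase and so lead to AKT, mTOR and the FOXO transcription factors. Most IGF outside the cell is held by binding proteins, which lengthen its life and limit or direct its access to the receptor. In the pancreas this axis is known for supporting beta cell growth and survival, with IRS2 of particular importance there.

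Of 78024 barcodes, 75201 were kept as cells, between 7381 and 17443 per rat, with a median of 2537 to 9391.5 unique molecular identifiers (UMIs, each a captured transcript) per cell. Each library pair shared 20 to 64 cell barcodes, at most 0.623% of the smaller library. The second HFHF-old rat stood apart. Of its 11716 cells 8315 were NK-like, 1345 T-like and 1119 fibroblast-like, and only 7 were islet-like, 9 ductal-like and 12 macrophage-like. Its islet-like and ductal-like cells were therefore left out, since a sum was used only with at least 10 cells, and the HFHF-old group in those 2 classes is 1 rat. Its macrophage-like cells held 31683 UMIs, against 5183856 to 33471765 in the other 5 rats.

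Cells were clustered without the 10 genes and named from marker genes, and 6 classes were examined: islet-like, acinar-like, ductal-like, fibroblast-like, endothelial-like and macrophage-like cells. The endothelial-like cluster had 11 of its 11 markers at least 2-fold above other cells, the 3 macrophage-like clusters 12 of 12, the fibroblast-like clusters 9 to 11 of 11, the acinar-like clusters 14 or 15 of 15, the islet-like clusters 11 of 12 and the ductal-like cluster 9 of 12. Acinar-like clusters 7 and 11 had a median of 834 and 4463 UMIs per cell. Cluster 7 held 24.8% and 71.3% of the class in young rats, 32.45% and 40.64% in old rats, and 71.6% and 3.28% in HFHF-old rats. Its part in the acinar-like results was not tested. Levels are given as CPM, the UMIs of a gene divided by all UMIs of the class in that rat and multiplied by 1000000. Fold changes are on the log2 scale from edgeR's quasi-likelihood test with its standard error (SE), and a gene was called changed when its Benjamini-Hochberg adjusted p over all genes tested in the class was under 0.05 and its absolute log2 fold change was over about 0.59. The fits scale each sum with edgeR's trimmed mean of M-values (TMM), and CPM are not scaled so. Without TMM the median gene moved by -0.54 to 0.52 on the log2 scale between groups in islet-like cells, -0.52 to 0.04 in acinar-like and -0.33 to 0.02 in ductal-like cells, and by at most 0.10 in the other 3 classes. Differences in level between classes are descriptions and were not tested. T-like and NK-like cells were used to show the level that free RNA in the droplets could give.

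**Figure D1:**
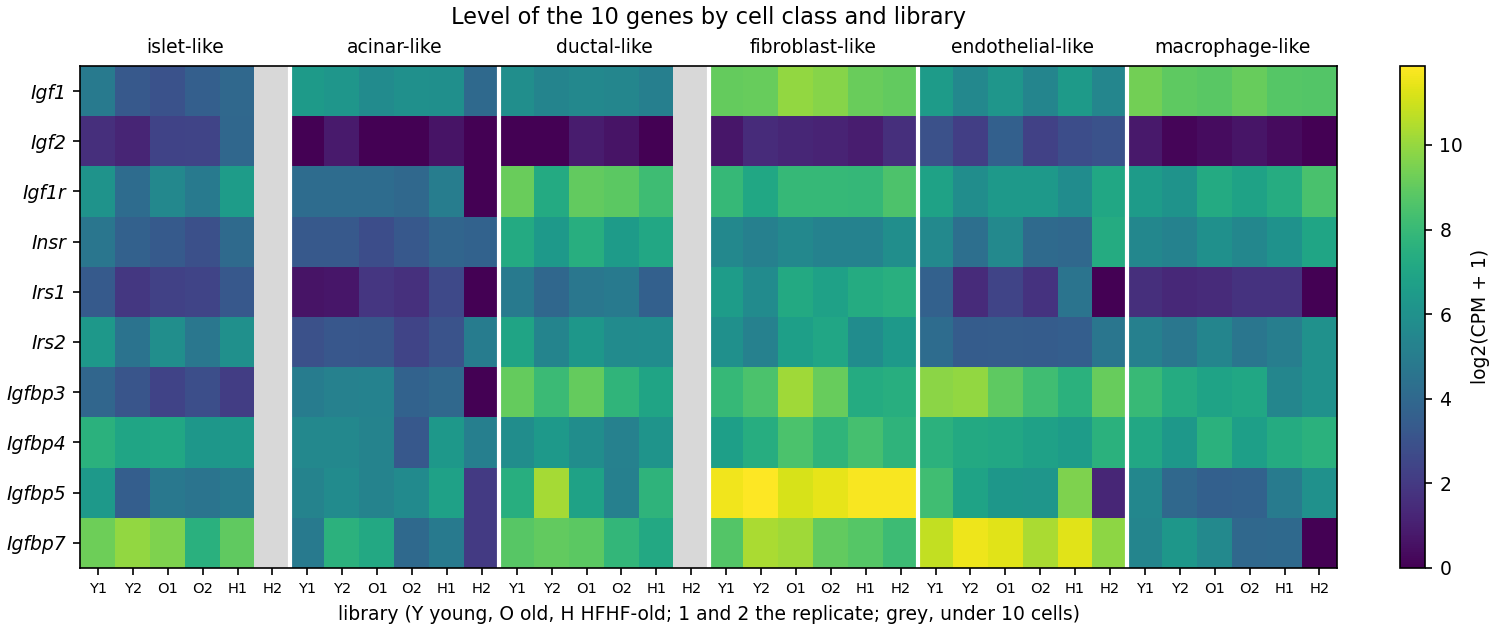
Level of each gene, as log2 of CPM plus 1, by cell class and library, with grey where a rat had under 10 cells of the class. Among these 6 classes, by median, Igf1 was highest in fibroblast-like and macrophage-like cells, Igf1r and Insr in ductal-like cells, Igfbp5 in fibroblast-like cells and Igfbp7 in endothelial-like cells.

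The ligands were unequally distributed. Igf1 was highest in fibroblast-like and macrophage-like cells. In fibroblast-like cells it stood at 537 and 545 CPM in the 2 young rats, 987 and 849 in the 2 old rats, and 570 and 512 in the 2 HFHF-old rats. Both old rats lay above both rats of the other groups. On the log2 scale the change was 0.75 (SE 0.28) in old against young and -0.79 (SE 0.28) in HFHF-old against old, and neither was called (adjusted p = 0.7 and 0.733, edgeR). In macrophage-like cells Igf1 stood at 650 and 481 CPM in young rats, 455 and 555 in old rats and 421 in the first HFHF-old rat, and it was 410 in the second, from 13 UMIs. The ranges of these 2 classes overlapped. The next classes by median were acinar-like cells (15.4 to 87.3 CPM), endothelial-like cells (41.1 to 89.4) and ductal-like cells (33.4 to 56.8), whose ranges overlapped one another, and islet-like cells were lowest at 7.04 to 28.2. NK-like cells held 0.430 to 66.9 and T-like cells 0.274 to 6.59, so the ranges of these 4 lower classes overlapped that of NK-like cells.

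Igf2 was scarce in the 6 classes and was found mainly in islet-like cells and in endothelial-like cells. In acinar-like, ductal-like and macrophage-like cells it never passed 0.855 CPM, against up to 2.01 in T-like cells. Among islet-like cells it stood at 2.05 and 1.31 CPM in young rats (25 and 19 UMIs), 4.29 and 4.33 in old rats (36 and 126 UMIs) and 14.7 in the 1 HFHF-old rat (129 UMIs). The 3 groups did not overlap. HFHF-old against young gave a log2 fold change of 3.14 (SE 0.39), which was called (adjusted p = 0.0275, edgeR, with the spread of the lone HFHF-old rat assumed to equal that of the other groups). The call was lost with library size in place of TMM (adjusted p = 0.22, edgeR), with finer or coarser cell clusters (Leiden resolution 2, 0.719, and 0.5, 0.0829) and without young replicate 2. At both of these resolutions the second HFHF-old rat had at least 10 islet-like cells and entered the fit, so cells and rats changed together. In that comparison 0.299% of all genes were called in islet-like cells. Old against young gave 1.88 (SE 0.34, adjusted p = 0.315, edgeR) and HFHF-old against old 1.25 (SE 0.37, adjusted p = 0.636, edgeR), and neither was called.

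The make-up of the islet-like class moved in step with this Igf2 result. When each islet-like cell was assigned to its most abundant hormone, beta cells made up 16.3% and 22.1% of the class in young rats, 40.3% and 43.0% in old rats and 69.1% in the HFHF-old rat. These shares leave out unnamed cluster 10, led by Pyy, Hbb, Ins1 and Ins2. It held 2783 cells of young replicate 2, beside 715 islet-like cells of that rat, and its part in the young values was not tested. Igf2 was higher in beta than in alpha or PP cells of each rat, at 6.36 and 3.24 CPM in young rats, 7.78 and 6.85 in old rats and 18.4 in the HFHF-old rat, while alpha cells held 0 to 0.456. In unscaled CPM of beta cells the median gene was also higher in the HFHF-old rat, by 0.98 on the log2 scale against young rats and 0.89 against old rats. After TMM scaling, within beta cells the log2 fold change in HFHF-old against young was 0.98 (SE 0.40) and was not called (adjusted p = 0.72, edgeR), beside 0.0777% of all genes called in beta cells. In RefSeq, Igf2 is the neighbour of the insulin gene Ins2, and whether reads of the 2 genes could be mixed in the counting was not tested. Outside the 6 classes, smooth muscle-like cells held 14.4 to 97.8 CPM of Igf2 in 5 rats, above every islet-like value but the highest.

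By median, the receptors were most abundant in ductal-like cells. Igf1r there stood at 571 and 154 CPM in young rats, 524 and 476 in old rats and 290 in the HFHF-old rat. The second young rat, with 41 ductal-like cells, was the lowest. Fibroblast-like cells followed (132 to 375), and then macrophage-like (68.1 to 347), endothelial-like (54.3 to 134), islet-like (17.5 to 92.8) and acinar-like cells (0 to 31.3). Each class overlapped the next in this order. T-like cells held 41.0 to 212 CPM of Igf1r and NK-like cells 45.5 to 149, so lymphoid cells were no empty background for this gene.

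In macrophage-like cells Igf1r stood at 89.4 and 68.1 CPM in young rats, 152 and 113 in old rats, 160 in the first HFHF-old rat and 347 in the second, from 11 UMIs. Young rats did not overlap with either older group. HFHF-old against young gave a log2 fold change of 1.15 (SE 0.32) and old against young 0.80 (SE 0.28), and neither was called (adjusted p = 0.077 and 0.225, edgeR). The first was 1.78 without HFHF-old replicate 1. Igf1r in islet-like cells stood at 67.9 and 17.5 CPM in young rats, 46.2 and 27.6 in old rats and 92.8 in the HFHF-old rat, and the young and old rats overlapped.

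Insr was also highest, by median, in ductal-like cells. It stood at 152 and 84.1 CPM in ductal-like cells of young rats, 174 and 89.2 in old rats and 137 in the HFHF-old rat. In CPM the 3 groups overlapped. After TMM scaling the HFHF-old rat lay above both old and both young rats in these cells, as did 40.2% and 36.2% of all genes. Insr was higher in HFHF-old than in old rats without overlap, after that scaling, in 4 of the 6 classes and lower in none. In islet-like and ductal-like cells the HFHF-old group was 1 rat. In acinar-like and macrophage-like cells its second rat gave only 61 and 12 cells, with 324943 and 31683 UMIs over all genes. The share of all genes higher in this way was 40.5% in islet-like cells (1 HFHF-old rat), 11.9% in acinar-like and 7.99% in macrophage-like cells. Macrophage-like cells held 37.0 to 126, fibroblast-like cells 34.9 to 57.1, endothelial-like cells 15.1 to 157, islet-like cells 6.56 to 23.9 and acinar-like cells 6.06 to 13.9, against 0.967 to 9.43 in T-like cells. NK-like cells held 5.08 to 15.4 CPM of Insr, which covers the acinar-like range and the low end of the islet-like range. The single value of 157 came from endothelial-like cells of the second HFHF-old rat, where the first HFHF-old rat had 15.1 CPM, so these 2 rats lay at opposite ends of the class. Insr was not called in any of the 6 classes.

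The docking proteins differed in their distribution. Among the 6 classes Irs1 was highest in fibroblast-like cells, at 94.5 and 52.6 CPM in young rats, 147 and 108 in old rats, and 158 and 176 in HFHF-old rats. Both old rats lay above both young rats, as did 19.6% of all genes after TMM scaling. Both HFHF-old rats, of the same age as the old rats, lay above both of these. For Irs1 the log2 fold change in HFHF-old against young was 1.13 (SE 0.32) and was not called (adjusted p = 0.439, edgeR). Macrophage-like cells, which were rich in Igf1, held at most 2.39 CPM of Irs1, within the T-like range of 0 to 2.64. Ductal-like cells (11.5 to 28.4) and endothelial-like cells (0 to 22.6) came between, while islet-like cells held 2.82 to 9.25 and acinar-like cells 0 to 5.19. Outside the 6 classes, smooth muscle-like cells (34.3 to 237) and mesothelial-like cells (44.7 to 144) overlapped with the fibroblast-like range. Irs1 did not pass the filter on low counts in acinar-like cells.

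Irs2 was more widespread. Fibroblast-like cells held 60.9 and 36.7 CPM in young rats, 104 and 128 in old rats, and 54.4 and 84.2 in HFHF-old rats. Both old rats were above both rats of each other group. Old against young gave a log2 fold change of 1.23 (SE 0.32) and HFHF-old against old -0.80 (SE 0.32), and neither was called (adjusted p = 0.52 and 0.783, edgeR). Ductal-like cells (40.2 to 121), islet-like cells (22.3 to 78.4) and macrophage-like cells (24.5 to 63.1) overlapped with fibroblast-like cells, whereas endothelial-like (10.0 to 24.0) and acinar-like cells (4.33 to 30.8) lay below every fibroblast-like value. T-like cells held 12.1 to 74.8 CPM of Irs2.

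Among the binding proteins, Igfbp3, the main carrier of IGF in the blood, gave the clearest difference between groups. In macrophage-like cells it stood at 258 and 157 CPM in young rats (5188 and 1178 UMIs), 117 and 132 in old rats (746 and 683 UMIs) and 43.0 in the first HFHF-old rat (1438 UMIs). The second HFHF-old rat had 63.1 from 2 UMIs, with a 95% Poisson interval of 7.64 to 228 that covers counting error only. The 3 groups did not overlap. The log2 fold change in HFHF-old against young was -2.32 (SE 0.36) and was called (adjusted p = 0.00784, edgeR), beside 2.65% of all genes called in macrophage-like cells. HFHF-old against old gave -1.64 (SE 0.35, adjusted p = 0.0653, edgeR) and old against young -0.68 (SE 0.28, adjusted p = 0.331, edgeR), neither of them called, and the latter was -0.29 without young replicate 1. T-like cells held 0.456 to 5.25 CPM of Igfbp3 and NK-like cells 0.405 to 24.7. The macrophage-like class leaves out unnamed cluster 5, whose leading genes include Olr1, Clec7a and Lyz2. Clec7a and Olr1 had been listed for a macrophage sub-cluster, but the closest marker list was that of neutrophils. It held 4642 cells, 1338 of them from the first HFHF-old rat and 89 from the second. Igfbp3 there stood at 6.16 to 87.3 CPM and Igf1 at 4.62 to 231. Its part in the macrophage-like results was not tested.

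In the whole macrophage-like class the Igfbp3 call was lost without either HFHF-old rat. With the first HFHF-old rat alone the log2 fold change was -2.34 (adjusted p = 0.0683, edgeR) and with the 12 cells of the second alone it was -2.07 (adjusted p = 0.894, edgeR). The call was also lost with no filter on low counts (adjusted p = 0.142, edgeR) and at Leiden resolution 2. At that resolution the second HFHF-old rat had under 10 macrophage-like cells and was not in the fit, so cells and rats changed together. The kinds of macrophage-like cells also differed between rats. Cluster 13, led by Oasl, Pdpn and Gpnmb, held 71.2% of the class in the first HFHF-old rat and 1.18% to 26.3% in young and old rats. Fitted apart, with only the first HFHF-old rat, cluster 1, led by the resident macrophage genes Fcna and Ccl24, gave -2.34 (SE 0.31, adjusted p = 0.0334, edgeR) and cluster 4 gave -2.47 (SE 0.42, adjusted p = 0.036, edgeR), both called, beside 1.44% and 2.65% of all genes. In both fits the spread was taken from the other groups, since the HFHF-old group was 1 rat. Cluster 13 was not fitted, and Igfbp3 there stood at 215 and 164 CPM in young rats, 65.0 and 84.0 in old rats and 42.0 in the first HFHF-old rat. All 11 fibroblast markers were detected in the macrophage-like cells of the young and old rats and the first HFHF-old rat, summing to 1475 and 591 CPM in the young pair, 645 and 428 in the old pair and 623 in the HFHF-old rat. Of the 11 endothelial markers 10 or 11 were detected, summing to 242 and 177 CPM in the young pair, 200 and 204 in the old pair and 179 in the HFHF-old rat. In the 12 cells of the second HFHF-old rat 4 and 2 of the 11 were detected. Their part in the result was not tested.

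**Figure D2:**
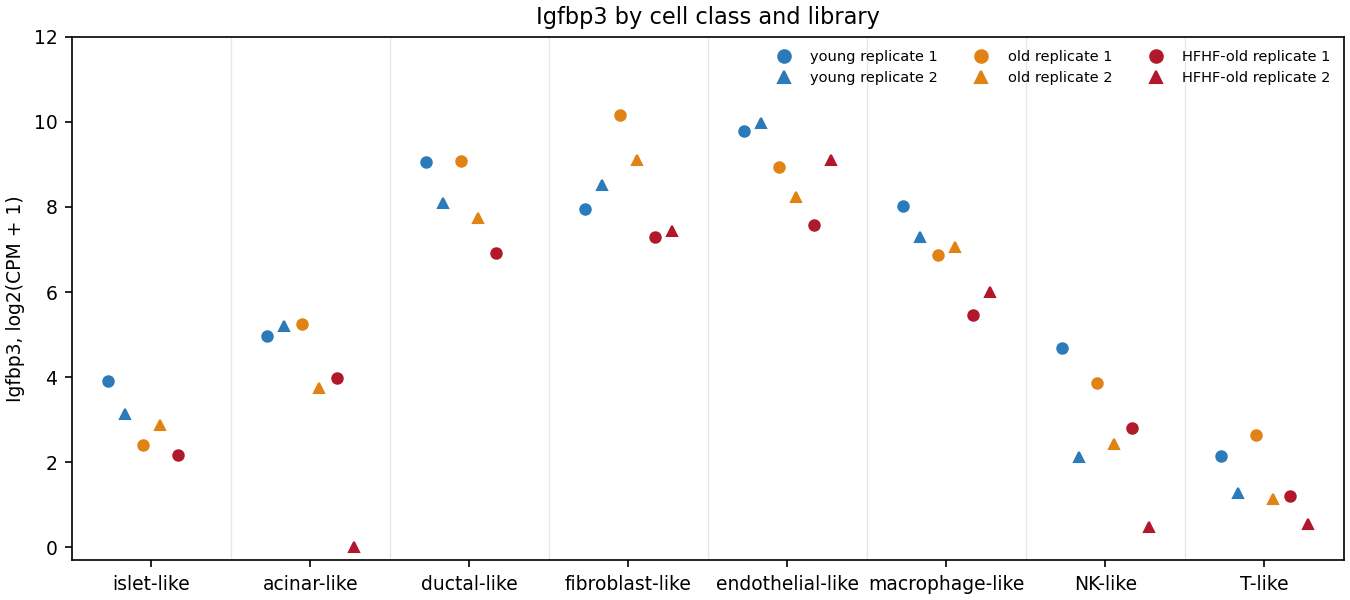
Igfbp3 as log2 of CPM plus 1 in each rat for the 6 classes and for NK-like and T-like cells. In each of the 6 classes the HFHF-old points lie below both young points, and in fibroblast-like cells the old points lie above all others.

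Igfbp3 was lower in HFHF-old than in young rats in each of the 6 classes, without overlap. The classes come from the same rats and are not independent of one another. The share of all genes with both HFHF-old rats below both young rats, after TMM scaling, was 24.3% in acinar-like, 17.2% in fibroblast-like, 20.1% in endothelial-like and 30.8% in macrophage-like cells. In islet-like and ductal-like cells the 1 HFHF-old rat lay below the young pair for 35.8% and 36% of all genes. In macrophage-like cells 26.2% of all genes were lower in each HFHF-old rat than in either old rat. Endothelial-like cells, with the highest young values, had 887 and 996 CPM in young rats, 486 and 300 in old rats, and 190 and 552 in HFHF-old rats. Both older groups were below young rats and overlapped each other. The log2 fold change was -1.38 (SE 0.51) in HFHF-old against young and -1.26 (SE 0.51) in old against young, not called (adjusted p = 0.746 and 1, edgeR), and the first of these was -0.83 without HFHF-old replicate 1 and -2.31 without HFHF-old replicate 2. Ductal-like cells held 532 and 271 CPM of Igfbp3 in young rats, 542 and 214 in old rats and 120 in the HFHF-old rat. Islet-like cells held 14.1 and 7.78 in young rats, 4.29 and 6.32 in old rats and 3.53 in the HFHF-old rat, a log2 fold change of -1.59 (SE 0.48) in HFHF-old against young that was not called (adjusted p = 0.309, edgeR). Those islet-like levels were close to the T-like range and all lay within the NK-like range of 0.405 to 24.7, so free RNA could give them. Acinar-like cells held 30.4 and 36 in young rats, 36.8 and 12.4 in old rats and 14.9 in the first HFHF-old rat, and none in 61 cells of the second, which allows up to 9.23 CPM. The values of 12.4 and 14.9 also lay within the NK-like range.

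Fibroblast-like cells took another course, in which Igfbp3 was highest in old rats. It stood at 248 and 363 CPM in young rats, 1139 and 553 in old rats, and 157 and 171 in HFHF-old rats. No 2 groups overlapped. In the same cells 19.6% of all genes lay higher in both old than in both young rats and 19.4% lower in both HFHF-old than in both old rats. The log2 fold change was -2.38 (SE 0.40) in HFHF-old against old and 1.44 (SE 0.39) in old against young, and neither was called (adjusted p = 0.318 and 0.525, edgeR). Without old replicate 1 the second value was 0.89. DESeq2 called both, at -2.39 (adjusted p = 7.58e-07) and 1.45 (adjusted p = 0.0201), beside 0.94% and 1.15% of all genes that DESeq2 called in these cells.

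**Figure D3:**
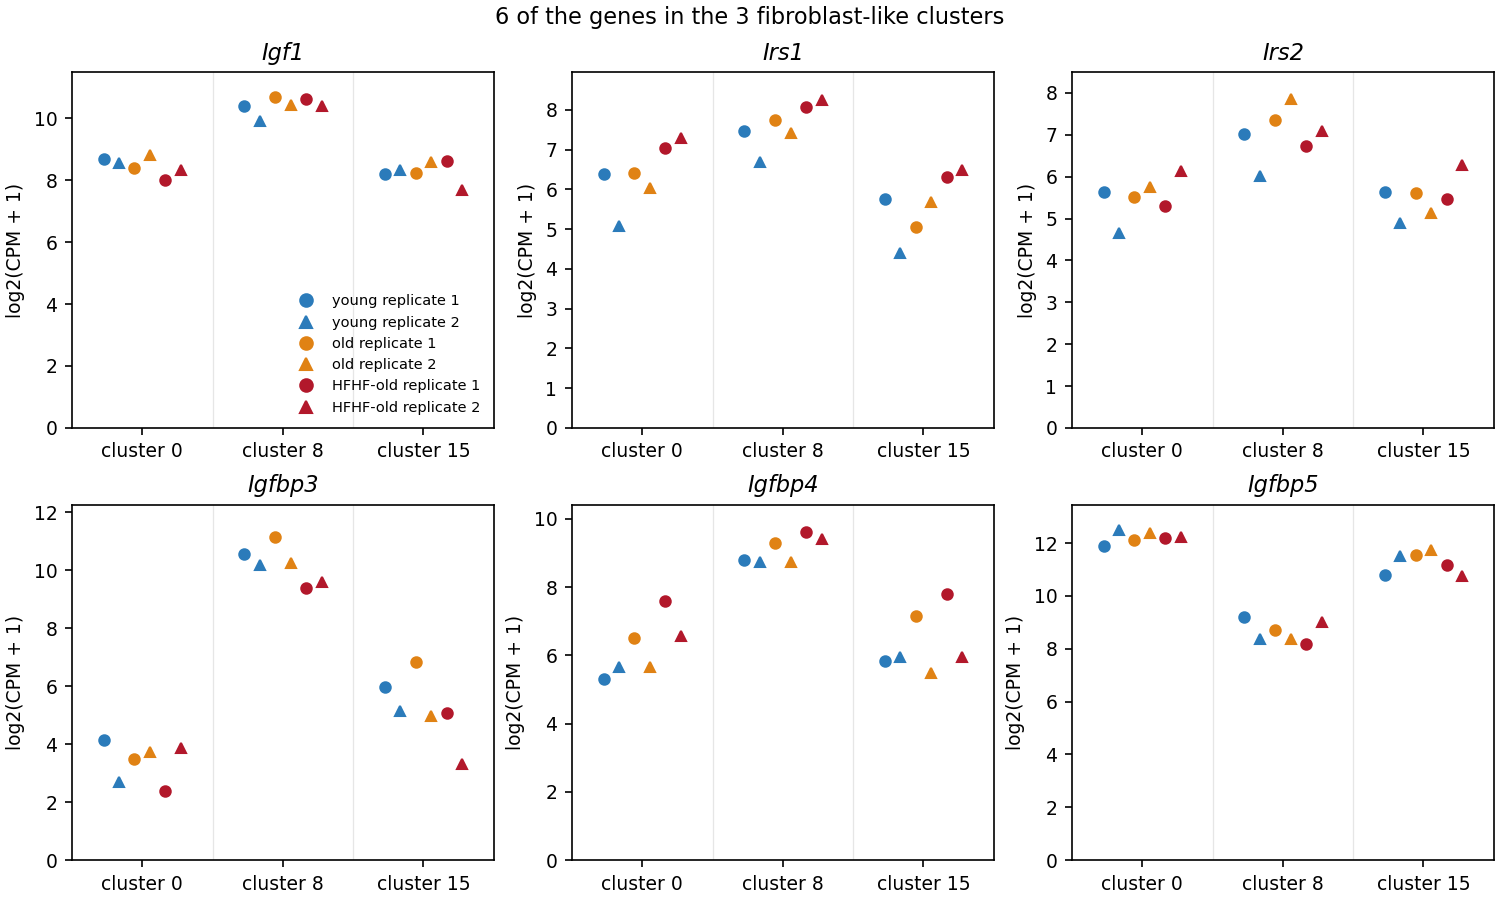
Levels of 6 genes in the 3 fibroblast-like clusters, as log2 of CPM plus 1 in each rat. Igf1, Irs1, Igfbp3 and Igfbp4 were highest in cluster 8, and Igfbp5 was highest in cluster 0.

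The fibroblast-like class held 3 clusters that differed widely in this axis. Cluster 8, led by Fmo2, Inmt, C7 and Spon1, held 662 to 2247 CPM of Igfbp3, whereas cluster 15, led by Pi16 and Clec3b, held 9.06 to 114 and cluster 0, led by Gfpt2, Tnfrsf11b and Sema3c, held 4.21 to 16.6. Cluster 8 was also the richest in Igf1, at 959 to 1642 CPM against 257 to 448 in cluster 0 and 205 to 391 in cluster 15, and none of these ranges met that of cluster 8. Irs1 reached 103 to 303 in cluster 8, 32.7 to 156 in cluster 0 and 20.1 to 89.4 in cluster 15. Igfbp5 was instead lowest in cluster 8, with 3842 to 5729 CPM in cluster 0, 1733 to 3403 in cluster 15 and 292 to 585 in cluster 8.

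The share of cluster 8 was highest in old rats, as were the Igf1, Irs2 and Igfbp3 levels of the whole class. Irs1 was instead highest in HFHF-old rats, and Igfbp4 was close in old and HFHF-old rats. Cluster 8 made up 13.9% and 32.1% of fibroblast-like cells in young rats, 54.3% and 45.0% in old rats, and 23.1% and 25.2% in HFHF-old rats. The HFHF-old shares lay between those of the young rats, whereas Igfbp3 of the whole class was lower in HFHF-old than in young rats without overlap. Within cluster 8 Igfbp3 stood at 1504 and 1167 CPM in young rats, 2247 and 1216 in old rats, and 662 and 775 in HFHF-old rats. Young and old rats overlapped there, and both HFHF-old rats lay below them. Within this cluster the log2 fold change was -1.34 (SE 0.39) in HFHF-old against old and 0.38 (SE 0.38) in old against young, not called (adjusted p = 0.959 and 1, edgeR). Igf1 within cluster 8 was 1328 and 959 CPM in young rats, 1642 and 1375 in old rats, and 1574 and 1330 in HFHF-old rats, with a log2 fold change of 0.41 (SE 0.35) in old against young. The Igf1 and Igfbp3 differences of the whole class in old against young were larger than those within cluster 8, and whether they differ was not tested. Irs2 was also highest in cluster 8, at 63.6 to 230 CPM against 24.0 to 69.0 in cluster 0 and 28.7 to 77.3 in cluster 15. For Irs2 the log2 fold change in old against young was 1.03 in cluster 8, 0.43 in cluster 0 and 0.08 in cluster 15, and in HFHF-old against old it was -0.79, 0.07 and 0.41 in the same order, none of them called.

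Igfbp4, an inhibitor of IGF whose cleavage frees the bound IGF, was detected in all 6 classes. In fibroblast-like cells it stood at 102 and 165 CPM in young rats, 361 and 215 in old rats, and 330 and 210 in HFHF-old rats. Both older groups lay above young rats. The log2 fold change was 1.09 (SE 0.40) in old against young and 1.00 (SE 0.40) in HFHF-old against young, not called (adjusted p = 0.704 and 0.639, edgeR), the latter 0.55 without HFHF-old replicate 1. Macrophage-like cells (80.6 to 189), endothelial-like cells (93.6 to 196) and islet-like cells (77.5 to 193) overlapped with that range, and ductal-like (35.6 to 84.1) and acinar-like cells (8.65 to 80.4) lay below the fibroblast-like range, against 0.547 to 9.66 in T-like cells.

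**Figure D4:**
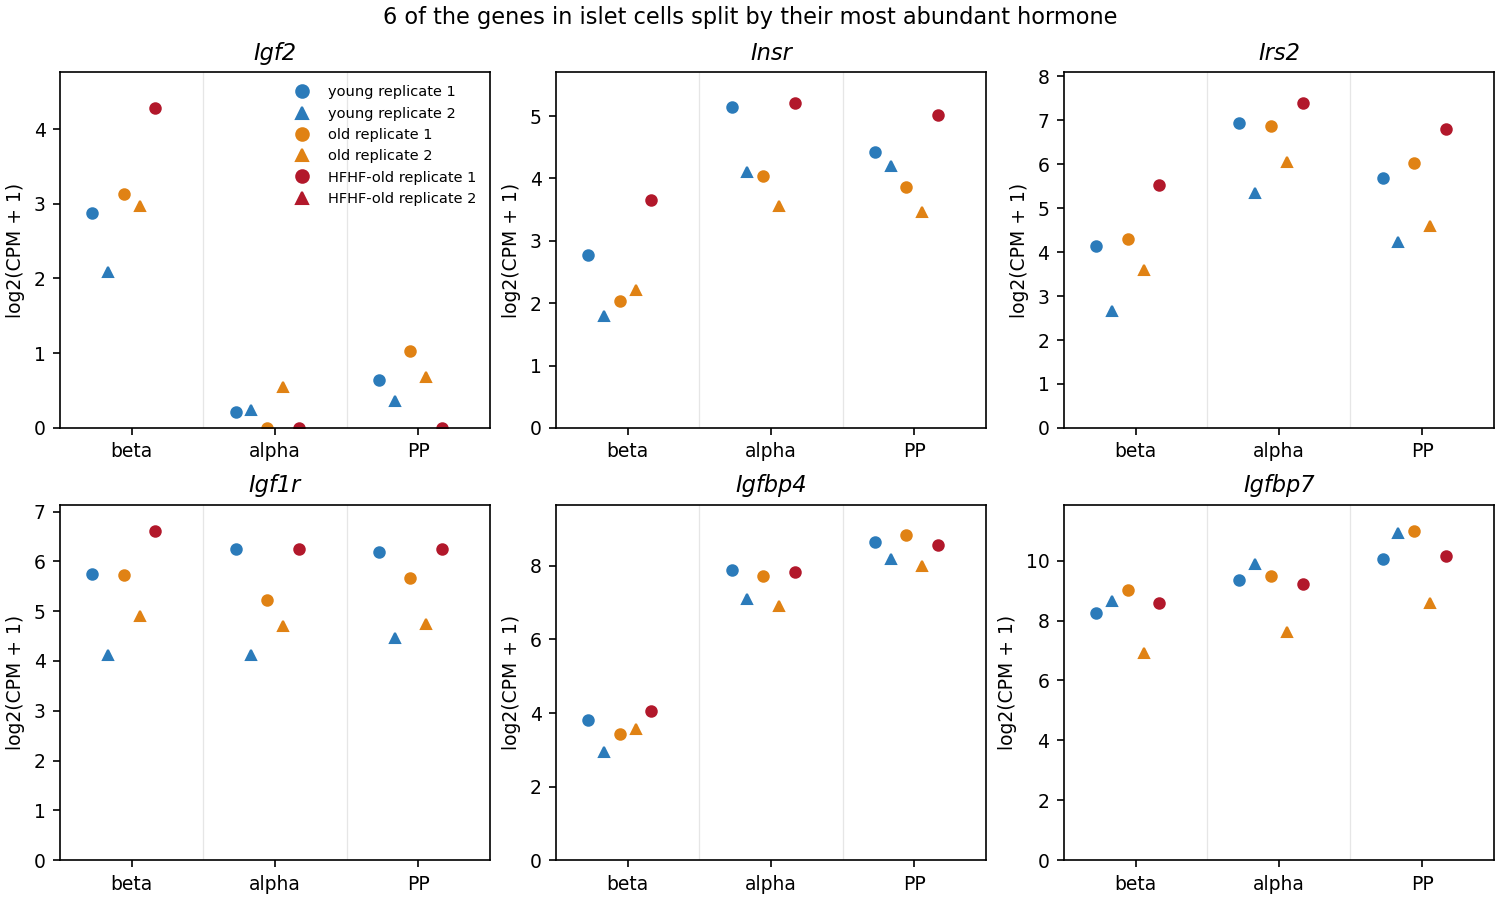
Levels of 6 genes in islet-like cells split into beta, alpha and PP cells by their most abundant hormone, as log2 of CPM plus 1 in each rat with at least 10 cells. Igf2 was in beta cells, and Insr, Irs2, Igfbp4 and Igfbp7 were lower in beta than in PP cells in each rat.

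Within the islet, beta cells held the least Igfbp4. It stood at 13 and 6.67 CPM in beta cells of young rats, 9.79 and 10.8 in old rats and 15.5 in the HFHF-old rat. Alpha cells held 119 to 238 and pancreatic polypeptide (PP) cells 254 to 453 in the same 5 rats, so the 3 ranges did not meet. Irs2 was ordered likewise between beta and alpha cells, at 5.34 to 45.3 CPM in beta cells and 39.7 to 168 in alpha cells, and the alpha value was the higher in each of the 5 rats. Insr stood at 2.48 to 11.5 in beta cells and 10.8 to 36 in alpha cells. Igf1r did not separate them, at 16.4 to 96.9 in beta cells, 16.3 to 75.4 in alpha cells and 21.1 to 75.5 in PP cells.

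Igfbp5, a binding protein that also attaches to extracellular matrix, had its highest levels among the 6 classes in fibroblast-like cells. It stood at 3132 and 3737 CPM in young rats, 2302 and 2714 in old rats, and 3474 and 3399 in HFHF-old rats. Old rats lay below both other groups, by a log2 fold change of -0.46 (SE 0.34) against young rats. HFHF-old against old gave 0.42 (SE 0.34), and neither was called (adjusted p = 0.949 and 0.874, edgeR). Smooth muscle-like cells held 1882 to 6119, while in islet-like, acinar-like and macrophage-like cells it was at most 111 CPM.

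Igfbp5 was uneven between rats in several classes. Acinar-like cells held 38.7 and 52.6 CPM in young rats, 39.1 and 49.8 in old rats, 111 in the first HFHF-old rat and 3.08 in the second, from 1 UMI in 61 cells. Ductal-like cells held 171 and 1233 CPM in young rats, 115 and 34.5 in old rats and 211 in the HFHF-old rat, and the high value came from 337 UMIs in 41 cells. The log2 fold change in old against young was -3.26 (SE 0.98) and was not called (adjusted p = 0.708, edgeR). It was -1.28 without that young rat, replicate 2. Endothelial-like cells held 299 and 117 in young rats, 77.3 and 74.5 in old rats, 751 in the first HFHF-old rat and 1.41 in the second, from 1 UMI in 93 cells. In macrophage-like cells Igfbp5 went from 44.6 and 15.2 in young rats to 11.4 and 12.3 in old rats and 29.8 in the first HFHF-old rat, with 63.1 in the second from 2 UMIs. This gave a log2 fold change of -1.29 (SE 0.41) in old against young (adjusted p = 0.186, edgeR) and of 1.25 (SE 0.47) in HFHF-old against old (adjusted p = 0.325, edgeR), not called. The first was -0.31 without young replicate 1 and the second 1.99 without HFHF-old replicate 1. T-like and NK-like cells held 1.62 to 33.4 CPM of Igfbp5, a range that covers most of these macrophage-like values.

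Igfbp7, which binds IGF only weakly and is known as a vessel-associated protein, led among the 6 classes in endothelial-like cells, at 1750 and 3071 CPM in young rats, 2612 and 1295 in old rats, and 2621 and 935 in HFHF-old rats. The 3 groups overlapped. Islet-like cells (183 to 995), fibroblast-like cells (278 to 1311) and ductal-like cells (144 to 519) overlapped with one another, acinar-like cells (3.08 to 199) overlapped with the low end of the islet-like and ductal-like ranges, and macrophage-like cells (0 to 77.3) lay below all of these but the acinar-like ones. Within the islet it stood at 119 to 515 CPM in beta cells, 195 to 945 in alpha cells and 384 to 2047 in PP cells, and beta cells were the lowest in each of the 5 rats. In macrophage-like cells it stood at 40.9 and 77.3 in young rats, 47.3 and 15.2 in old rats and 15.7 in the first HFHF-old rat, with 0 UMIs in the second, which allows up to 94.7 CPM. For Igfbp7 the log2 fold change in HFHF-old against young was -2.0 (SE 0.53) and was not called (adjusted p = 0.0655, edgeR). Without HFHF-old replicate 1 only the rat with 0 UMIs was left in that group, and the fitted value of -11.8 then depends on the prior count and is no bound. The T-like range for Igfbp7 was 1.46 to 18.4 CPM.

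**Figure D5:**
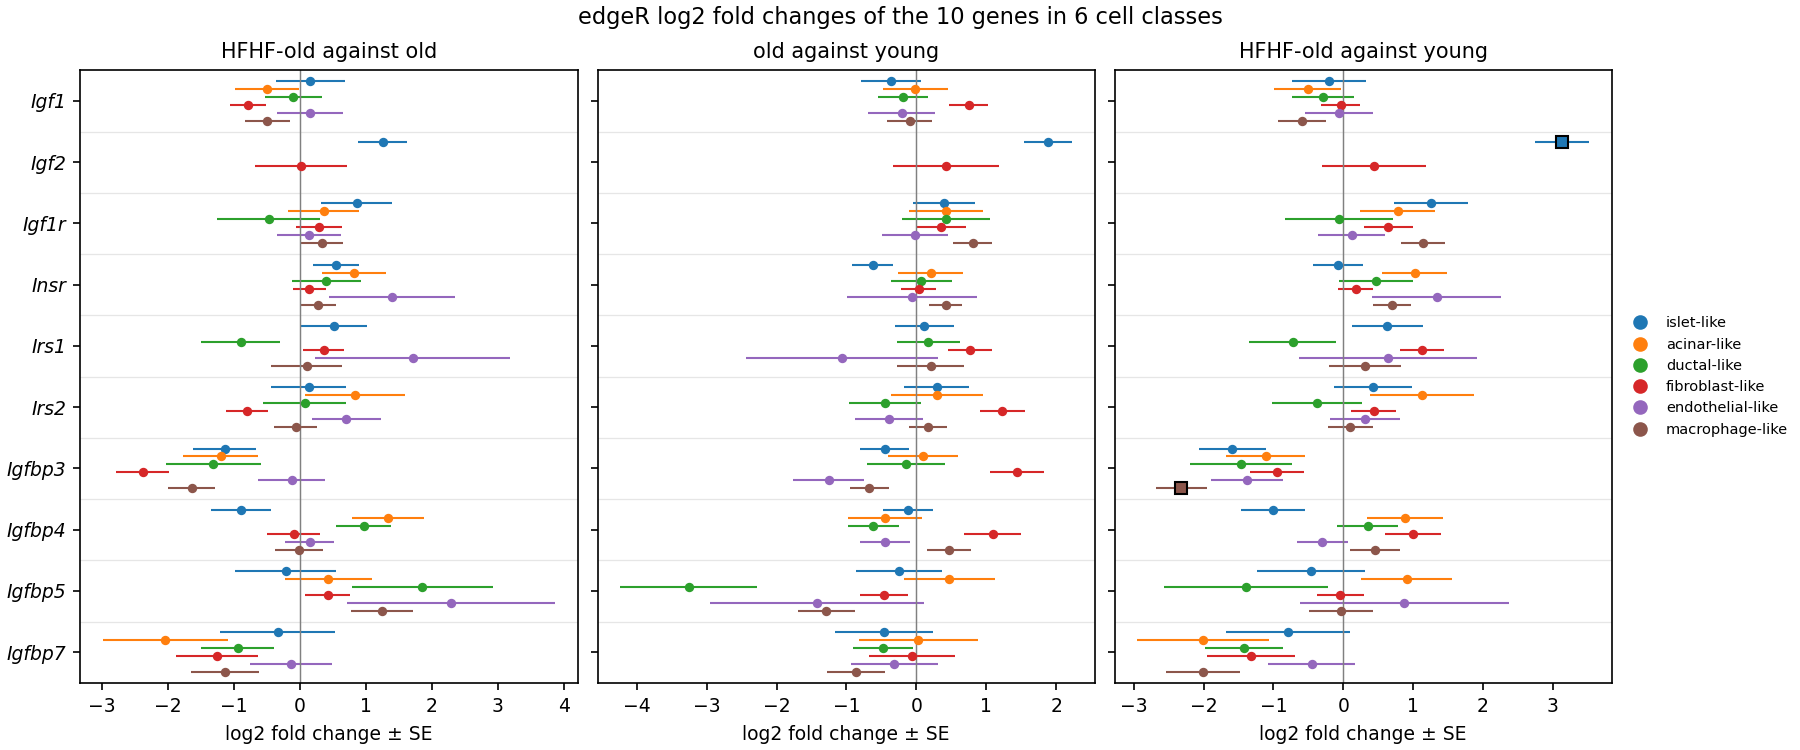
Log2 fold changes with standard errors of the 10 genes in the 6 cell classes for each pair of groups, from edgeR. Squares with black edges mark the 2 called results, Igf2 in islet-like cells (3.14) and Igfbp3 in macrophage-like cells (-2.32), both in HFHF-old against young, and pairs that did not pass the filter on low counts have no point.

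Over the 6 classes, 55 of 60 pairs of gene and class passed the filter on low counts, the missing ones being Igf2 in 4 classes and Irs1 in acinar-like cells. HFHF-old against young had 2 calls among the 55, and 13 pairs at an unadjusted p under 0.05 (23.6%, beside 9.64% of all pairs). The share of all genes called was 0.299% in islet-like, 0.0415% in acinar-like, 0% in ductal-like, 0.00718% in fibroblast-like, 0% in endothelial-like and 2.65% in macrophage-like cells. HFHF-old against old had 0 calls among the members by edgeR's test, with 9 pairs at an unadjusted p under 0.05 (16.4%, beside 7.68% of all pairs of gene and class) and 1 call by DESeq2, Igfbp3 in fibroblast-like cells. The share of all genes called there was 0.0641% in islet-like, 0.0144% in fibroblast-like and 0.371% in macrophage-like cells and 0% in the other 3 classes. Old against young had 0 calls by edgeR's test, with 11 pairs at an unadjusted p under 0.05 (20%, beside 5.95% of all pairs) and 1 call by DESeq2, again Igfbp3 in fibroblast-like cells, beside 0.0142%, 0.0215% and 1.33% of all genes called in islet-like, fibroblast-like and macrophage-like cells and 0% in the other 3. In old against young, Insr, Igfbp3, Igfbp4 and Igfbp5 (4 of 10 members) were higher without overlap in 1 class and lower in at least 1 other after TMM scaling, as were 21.5% of all genes tested in at least 2 classes. All 3 comparisons draw on the same 6 rats, and each pair of comparisons shares a group. Since the members were chosen with earlier results of these data known, their shares beside those of all genes, here and below, are descriptions only.

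The members of the axis in fibroblast-like cells differed most in old against young, where 5 of 10 had an unadjusted p under 0.05 and a higher level in old rats, namely Igf1, Irs1, Irs2, Igfbp3 and Igfbp4. Their median log2 fold change over all 10 members was 0.59, beside -0.00336 over all genes tested, and 6.49% of all genes in that class had an unadjusted p under 0.05. In HFHF-old against old, 3 of 10 members had an unadjusted p under 0.05, all lower, namely Igf1, Irs2 and Igfbp3, beside 6.19% of all genes. Both comparisons use the same 2 old rats, so the lower values are no independent result.

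Beyond the 10 members, 7 lists of pathway genes were counted. They covered other parts of the IGF axis, adaptors and docking proteins, PI3K and AKT, the mTOR arm, the RAS and ERK arm, negative regulators and FOXO factors with their target genes. No listed gene was called by edgeR's test in HFHF-old against old or in HFHF-old against young in any of the 6 classes. In old against young 1 listed gene was called, Sh2b2 in macrophage-like cells. That is 1 of 89 listed genes tested in those cells (1.12%), close to the 1.33% of all genes called there, so the count says nothing particular about the lists. Sh2b2 encodes an adaptor that binds activated insulin receptors. It stood at 10.3 and 19 CPM in young rats, 43.6 and 59.4 in old rats and 26.3 in the first HFHF-old rat, with 0 UMIs in the 12 cells of the second. Old rats lay above both young rats and the first HFHF-old rat, and the order against the second is not known at its depth. Its log2 fold change was 1.91 (SE 0.34, adjusted p = 0.0182, edgeR), and DESeq2 gave 1.83 and did not call it (adjusted p = 1). By edgeR the call was also lost with no filter on low counts (adjusted p = 0.263), at Leiden resolution 2 and without HFHF-old replicate 1 or 2. At resolution 2 the second HFHF-old rat had under 10 macrophage-like cells, so it was not in that fit either. The course of Sh2b2 was not particular to macrophage-like cells. In fibroblast-like cells, where it was not called, it stood at 2.95 and 2.82 CPM in young rats and 13.5 and 12.2 in old rats. The HFHF-old rats there had 5.01 and 3.86.

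At an unadjusted p under 0.05, 16 of 90 tested pairs of negative regulator and class passed in HFHF-old against young (17.8%), 12 of them higher, beside 9.64% of all tested pairs of gene and class. Among these and chosen after its values were seen, Trib3, a pseudokinase that restrains AKT, had a log2 fold change of 2.41 (SE 0.43) in fibroblast-like and 3.47 (SE 0.77) in islet-like cells, neither of them called (adjusted p = 0.219 and 0.15, edgeR). Other parts of the IGF axis passed in 16 of 69 pairs (23.2%), with 8 higher and 8 lower. The other 5 lists passed in 5.56% to 14.1% of their pairs in that comparison. In HFHF-old against old the 7 lists ranged from 3.61% to 17.4%, beside 7.68% of all pairs, and in old against young from 1.39% to 13%, beside 5.95%.

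Other genes followed some members closely across the 34 class sums, each the sum of 1 class in 1 rat, which share libraries and depth. The measure was Pearson's r of log2(CPM + 1), given without a test. Igf1 was most like Mnda (r = 0.958), Pla2g4a (r = 0.948) and Apbb1ip (r = 0.947). Igfbp5 was most like PCOLCE2 (r = 0.96), Antxr1 (r = 0.957) and Akr1c3 (r = 0.955). For Igfbp3 the nearest genes were Myl12a, Txnip and Wwc2 (r = 0.942, 0.942 and 0.928), for Igfbp7 Ece1, Pitpnm2 and Mcf2l (r = 0.933, 0.918 and 0.914), and for Igf1r Aldh9a1, Sergef and Hsd17b4 (r = 0.949, 0.946 and 0.943). Irs1 was nearest to Ildr2, Car8 and Plagl1 (r = 0.942, 0.935 and 0.931) and Insr to Mtr, Kif16b and Osbpl8 (r = 0.915, 0.91 and 0.898). The least close were Igf2 with Rapgef4 (r = 0.876), Irs2 with Lgr4 (r = 0.845) and Igfbp4 with Ccdc88a (r = 0.806).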

How the data were processed

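Single-cell 3′ libraries of 6 rat pancreas preparations (3 groups of 2 rats) were analysed. The deposited matrices hold UMI counts per gene and barcode, which the authors made with Cell Ranger (5.0.0 per the file headers) on Rnor 6.0 (per the processing notes of the labels), with no normalization. Barcodes with under 200 genes, over 25% mitochondrial UMIs or a gene number in the top 1% were left out, after the study's methods. This kept fewer cells than the study reports. Cells were clustered with scanpy 1.11.5 (10 principal components, 2000 variable genes less the members and listed genes, 15 neighbours, Leiden resolution 1). Clusters were named from marker lists, with thresholds set after the clusters were seen, and doublets were marked only in an alternative. UMIs were summed per rat and class (at least 10 cells) and tested with edgeR 4.0.16 (TMM, filterByExpr, quasi-likelihood, all groups in 1 fit per class), with DESeq2 1.42.0 as an alternative, and the procedure was tested on simulated data. Each p-value rests on the spread between rats of a group, pooled over the groups. Where the HFHF-old group was 1 rat, that spread came from the other groups. Counting intervals and limits cover counting error only. The named genes are all members, listed genes that were called, and the 3 genes most like each member. Trib3 was named outside this rule, after its values were seen. Members and lists were chosen with earlier results of these data known. Total UMIs per library ranged from 77387928 to 166875258. The alternatives were DESeq2, no filter on low counts, the replicate number as a block, library size without TMM, Leiden resolutions 0.5 and 2, doublets left out, cells with at least 1000 UMIs, and each library left out in turn. Fits of single clusters, of beta and alpha cells and of pairs of classes in 1 fit were added after the data were seen. Of the listed genes, Pappa and Irs4 were not matched and are not analysed here.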

Additional observations from a re-analysis of the deposited data

Results flagged for a closer look

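In old against young, 4 of 10 members lay in opposite directions in at least 2 classes, with no overlap between the old and young rats in either class after TMM scaling. So did 21.5% of all genes tested in at least 2 classes. Of the 8 members tested in all 6 classes 4 did so, beside 25.6% of all genes tested in all 6. In unscaled CPM the groups overlapped for Igfbp5 in acinar-like cells (38.7 and 52.6 in young rats, 39.1 and 49.8 in old rats), with a slightly lower mean in old rats, and for Insr in macrophage-like cells (44.04 and 37.0 in young rats, 60.8 and 43.98 in old rats). Each difference between classes was also fitted directly with edgeR over all genes, and of 438 such tests of members over 15 pairs of classes 6 had an adjusted p under 0.05 (1.37%), beside 0.239% of the same tests over all genes. The classes come from the same rats.

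Igfbp3 had a log2 fold change of 1.44 in fibroblast-like cells, against -1.26 in endothelial-like, -0.68 in macrophage-like and -0.45 in islet-like cells. The differences from fibroblast-like cells did not pass the test (adjusted p = 0.351, 0.102 and 0.31 respectively, edgeR). Igfbp4 had 1.09 in fibroblast-like cells against -0.62 in ductal-like and -0.45 in endothelial-like cells, and neither difference passed (adjusted p = 0.0772 and 0.766, edgeR). Igfbp5 had 0.47 in acinar-like cells against -3.26 in ductal-like, -0.46 in fibroblast-like, -1.42 in endothelial-like and -1.29 in macrophage-like cells, and none of these differences passed (adjusted p = 0.214, 1, 0.234 and 0.0511, edgeR). Insr had 0.42 in macrophage-like cells and -0.63 in islet-like cells (adjusted p of the difference = 0.29, edgeR).

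A rat entered such a fit only with at least 10 cells of both classes. Of the 6 differences that passed, 5 involve islet-like cells and so rest on 1 HFHF-old rat on both sides. In HFHF-old against old, the log2 fold change of Igfbp4 was lower in islet-like than in acinar-like cells by a difference of -2.73 (adjusted p = 0.0211, edgeR), and that of Igfbp5 was lower in islet-like than in endothelial-like cells by -3.48 (adjusted p = 0.00994, edgeR). On the endothelial-like side of the latter, only the first HFHF-old rat (751 CPM) was in the fit. The second, which was left out, held 1.41, against 77.3 and 74.5 in old rats. In HFHF-old against young, Igfbp4 differed by -2.42 between islet-like and fibroblast-like cells (adjusted p = 0.0325, edgeR), Igf1r by 2.07 between islet-like and endothelial-like cells (adjusted p = 0.0458, edgeR) and Igf2 by 4.04 between islet-like and macrophage-like cells (adjusted p = 0.0277, edgeR). That Igf2 difference cannot be read as one between the classes, because Igf2 in macrophage-like cells stood at 0 to 0.746 CPM, from at most 15 UMIs, and did not pass the filter on low counts there. The sixth was Igfbp4 in HFHF-old against old, higher in acinar-like than in macrophage-like cells by 1.62 (adjusted p = 0.0474, edgeR), where the second HFHF-old rat gave 61 and 12 cells. The log2 fold change of Igfbp4 in acinar-like cells alone was 1.34 and was not called, and it was 2.71 without old replicate 1 and 0.70 without old replicate 2.

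Outside the named classes, Igf2 reached 767 CPM (1188 UMIs, 95% Poisson interval 724 to 812, counting error only) in cluster 19. This unnamed cluster was led by Prap1 and Ctsj and had a median of 706 UMIs per cell. All of its 1835 cells came from the second old rat. Its closest class was smooth muscle, with 9 of 11 markers at least 2-fold above other cells, and it was left unnamed for its low UMIs. None of its 10 leading genes was a marker of any class. At Leiden resolution 2, cluster 33, also all from this rat, had Prap1, Ctsj, Prl2a1 and Ctsq among its leading genes. Whether these are cells of the pancreas was not tested. Smooth muscle-like cells, the named class with the most Igf2, held 14.4 to 97.8.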

How the results depend on the processing

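The member counts moved with the settings, and so did the share of all genes called. In HFHF-old against old that share went from 0.0144% in fibroblast-like cells to 0.94% with DESeq2 and 2.36% with no filter. In macrophage-like cells it went from 0.371% to 3.52% with the replicate block, 4.43% without young replicate 1 and 0% with no filter. The member counts are thus no result about the members alone. In HFHF-old against old, DESeq2 called 1 pair of gene and class, no filter on low counts 5 and the replicate block 2, and leaving out 1 rat gave 0 to 3. In old against young the same settings called 1, 5 and 2, and leaving out 1 rat gave 0 to 2. In HFHF-old against young no filter gave 5, the replicate block 4, library size alone 1, and clusters at resolutions 2 and 0.5 gave 0 and 1, with 1 to 4 on leaving out 1 rat. The labels give same-numbered rats nothing in common but the number, and their deviations from the group means correlated at -0.18 to 0.20. Whether they shared a preparation or a run is not known, so the block is given here alone. Igf2 in islet-like cells in HFHF-old against young was not called with library size alone (adjusted p = 0.22, edgeR), at resolution 2 (0.719) or 0.5 (0.0829), or without young replicate 2. At both of these resolutions the second HFHF-old rat also entered the islet-like class. Igfbp3 in macrophage-like cells was not called with no filter (adjusted p = 0.142, edgeR) or at resolution 2. Sh2b2 was not called with no filter (adjusted p = 0.263, edgeR), at resolution 2, or without HFHF-old replicate 1 or 2. At resolution 2 the second HFHF-old rat had under 10 macrophage-like cells, so for Igfbp3 and Sh2b2 cells and rats changed together. Irs2 in HFHF-old against old reversed in fibroblast-like clusters 0 (0.068) and 15 (0.41), and Igfbp3 in old against young in cluster 0 (-0.084). Igfbp3 in fibroblast-like cells in HFHF-old against old went from -2.38 to -1.34 at resolution 2. Leaving out 1 rat moved 15 of 34 fold changes by over 1.5 times. Of 534 alternative values of 34 results, 486 kept their direction and side of the threshold, 29 passed it newly, 16 lost it and 3 reversed. Most of the 486 belong to results that were not called and stayed so. All 16 losses fall on the called results, namely Igf2 in islet-like cells and Igfbp3 and Sh2b2 in macrophage-like cells. These had only 14, 16 and 16 alternatives, so the calls were less stable than the total implies. For islet-like and ductal-like results, leaving out HFHF-old replicate 2 repeated the main fit, so those values were kept by design. The causes were not tested. With 2 rats a group, 1 in some, differences may have gone uncalled.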

Other observations

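Mesothelial-like and smooth muscle-like cells, which stand outside the 6 classes, carried much of the axis in the rats with at least 10 such cells. Mesothelial-like cells of 4 rats held 376 to 749 CPM of Igfbp4, above every value of the whole fibroblast-like class, while fibroblast-like cluster 8 alone held 423 to 782. Smooth muscle-like cells of 5 rats held 643 to 2971 CPM of Igfbp7.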
